A study of Mus musculus with 9 samples.

Results

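The Asb4 Msx1 cells were mesenchymal cells of the mouse forelimb bud that carried high levels of both Asb4 and Msx1. They were chosen from single-cell transcriptomes by a fixed rule on the counts of unique molecular identifiers (UMIs), each UMI standing for 1 captured transcript. A barcode had to hold over 2500 genes and stay under 200000 UMIs, with a mitochondrial share below 10%. It counted as mesenchyme with at least 3 UMIs of Prrx1, a transcription factor of the limb mesenchyme, and with 0 UMIs of Lbx1 (migrating muscle progenitors), Epcam (epithelium), Cdh5 (endothelium) and Tyrobp (myeloid cells). Per 10000 UMIs the cell then needed at least 5 of Asb4 and at least 3 of Msx1. Cells with any UMI of Pax1 (anterior proximal), Shh (posterior) or Hoxa13 (distal) were dropped. The rule found 2724 cells, which were 7.86% of 34671 mesenchymal cells among 52432 barcodes past the quality limits. The levels of these 10 genes therefore describe the choice of cells and are not findings.

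Pairs of forelimb buds were taken from mouse embryos on a Swiss Albino background at E10.75, and each library was 1 biological replicate. There were 3 libraries of wild type (Wt), 3 of EC1CRM8Δ/Δ (E1C8Δ/Δ) and 3 of EC1CRM5Δ/Δ (E1C5Δ/Δ). Both mutants were homozygous for germline deletions of enhancers of Grem1, so every cell of the embryo carried them, and both lacked the EC1 element. E1C8Δ/Δ lacked CRM8 in addition, on a chromosome that already carried the EC1 deletion, and E1C5Δ/Δ lacked CRM5 in addition. The Grem1 coding region was left in place in both. The study used embryos of both sexes, but the libraries were not balanced for sex, as given below.

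Limb mesenchyme grows out beneath the ectoderm, and the apical ectodermal ridge at the distal rim releases FGFs that keep the cells below it proliferating. BMP ligands from ectoderm and mesenchyme act on the same cells, and Gremlin1, the product of Grem1, is a secreted antagonist that binds them. Msx1 and Msx2 encode homeodomain repressors that rise with BMP signaling and mark undifferentiated progenitors. Lhx2 and Lhx9 encode LIM homeodomain factors that relay FGF signals in the limb bud. Asb4 encodes an ankyrin repeat protein with a SOCS box, a class that recruits substrates to ubiquitin ligases.

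The start regions of Asb4, Msx1 and the related Msx2 are shown because Asb4 and Msx1 defined the cells and Msx2 differed between the mutants in them. Each sequence covers 250 bases before to 50 after an annotated transcription start, from RefSeq on GRCm38.p6, written 5′ to 3′ on the strand of the gene. Capitals mark TAATTA, a core bound by many homeodomain proteins, and GGCGCC, a palindrome bound by BMP SMADs.
Asb4 start 1, chr6:5383136-5383435 (+): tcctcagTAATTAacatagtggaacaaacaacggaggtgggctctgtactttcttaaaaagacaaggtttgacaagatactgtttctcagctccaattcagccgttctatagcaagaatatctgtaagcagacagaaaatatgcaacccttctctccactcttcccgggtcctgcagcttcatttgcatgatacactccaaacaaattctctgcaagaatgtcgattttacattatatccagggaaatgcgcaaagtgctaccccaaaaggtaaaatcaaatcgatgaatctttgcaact
Asb4 start 2, chr6:5390160-5390459 (+): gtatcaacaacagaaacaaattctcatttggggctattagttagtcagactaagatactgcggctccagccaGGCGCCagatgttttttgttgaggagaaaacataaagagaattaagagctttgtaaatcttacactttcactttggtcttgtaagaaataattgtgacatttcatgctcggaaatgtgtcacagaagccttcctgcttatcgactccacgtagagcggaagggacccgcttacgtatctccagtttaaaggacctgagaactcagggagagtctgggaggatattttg
Msx1, chr5:37824536-37824835 (-): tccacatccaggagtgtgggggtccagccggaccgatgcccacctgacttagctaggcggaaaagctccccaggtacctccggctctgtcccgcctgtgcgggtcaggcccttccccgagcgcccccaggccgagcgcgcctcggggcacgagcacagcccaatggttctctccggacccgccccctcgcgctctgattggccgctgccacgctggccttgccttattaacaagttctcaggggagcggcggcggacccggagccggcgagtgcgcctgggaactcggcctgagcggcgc
Msx2, chr13:53472731-53473030 (-): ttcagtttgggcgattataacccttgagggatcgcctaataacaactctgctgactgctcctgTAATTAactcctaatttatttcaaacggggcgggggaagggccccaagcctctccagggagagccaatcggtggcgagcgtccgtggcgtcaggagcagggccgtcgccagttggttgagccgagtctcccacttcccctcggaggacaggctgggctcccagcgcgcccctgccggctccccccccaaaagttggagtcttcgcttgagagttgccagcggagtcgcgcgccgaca
TAATTA was found once upstream of the first Asb4 start, at base -243, and once upstream of Msx2, at base -187. GGCGCC was found once upstream of the second Asb4 start, at base -178. The Msx1 window held neither. Both motifs read the same on either strand and share no bases with each other. Of 32851 mouse start regions of this length, 5.29% held TAATTA and 11.9% held GGCGCC, so such matches are common, and they describe letters and not bound sites.

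The libraries differed in size and depth. They held 604 to 9917 barcodes past the quality limits and gave 23 to 733 Asb4 Msx1 cells each, 558 in Wt, 1146 in E1C8Δ/Δ and 1020 in E1C5Δ/Δ. Wt replicate 3 gave 23 and E1C8Δ/Δ replicate 1 gave 25. The median UMI count of these cells was 33981 to 53030 in Wt, 33269 to 52229.5 in E1C5Δ/Δ and 17881 to 27385 in E1C8Δ/Δ, so the E1C8Δ/Δ libraries were the shallowest. Xist, which is read from the inactive X chromosome, was over 100 CPM in 4 of the 6 mutant libraries and in 0 of the Wt libraries. Summed RNA of Y genes was at 133 to 153 CPM in Wt and at 0.0172 to 3.03 CPM in the 4 mutant libraries with high Xist. In the other mutant libraries it was at 108 and 130 CPM. Sex and genotype were thus partly confounded. Genes on X and Y were left out of all tests of genotype. Any pair of libraries shared 0 to 28 barcodes, and 2 barcodes of Asb4 Msx1 cells occurred in more than 1 library.

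The cells matched the markers that go with the label. Lhx2 was at 269 to 444 CPM (UMIs of the gene scaled to the same total in every sum of cells) in the Asb4 Msx1 cells of the 9 libraries, and Lhx9 at 416 to 592 CPM. In the other mesenchymal cells of the same libraries the means were 98.6 CPM for Lhx2 and 206 CPM for Lhx9, against 362 and 510 CPM here. After each cell was thinned to 10000 UMIs, 85.7% to 97.1% of the Asb4 Msx1 cells held at least 1 UMI of both genes. In blood cells, which should lack both, thinned shares were 3.62% to 7.69% for Lhx2 and 6.07% to 16.6% for Lhx9, which gives the level of free RNA. The dissociated cells carry no position, so a peripheral location was not tested, and they are called by their rule here.

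Cells just inside and just outside the thresholds differed little in these markers. The 245 cells with Asb4 between 5 and 6 per 10000 UMIs had 241 CPM of Lhx2 and 395 CPM of Lhx9. The 224 cells between 4 and 5, which missed the rule, had 229 and 387 CPM. Around the Msx1 threshold, Lhx2 was at 297 CPM in the 680 cells from 3 to 4 and at 282 CPM in the 894 cells from 2 to 3. The values changed little across either threshold. Of all mesenchymal cells past the Msx1 threshold alone, 46.6% to 70.7% also passed the Asb4 threshold. Among all mesenchymal cells, 16.9% to 40.1% per library passed the Asb4 threshold.

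The comparisons with other mesenchymal cells of the same library describe the cells, with no test, because the rule used the expression of these cells. The log2 ratio was taken per library on CPM with a pseudocount of 1. Among 7846 genes at 10 CPM or more, 9.04% were higher in the Asb4 Msx1 cells in 9 of 9 libraries and 9.16% were lower in 9 of 9, and the median gene had a log2 ratio of 0.01.

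The listed signature genes are described first. Lhx2 had a median log2 ratio of 1.91 over the libraries (lowest 1.47, highest 2.20) and Lhx9 one of 1.35. Msx2, the sister gene of Msx1, reached 1.89, with 120 CPM against 33.2 CPM in the other mesenchyme. Dlx5, a distal-less homeobox gene, had the largest ratio of the listed signature genes, 2.43, from 18.2 CPM against 2.39 CPM. Tfap2a, an AP-2 factor, followed with 1.75. The secreted WNT potentiator gene Rspo4 had a ratio of 1.12 but ranged from 0.14 to 1.75 between libraries. All 9 of 9 listed signature genes were higher in 9 of 9 libraries. The study chose that list on these same libraries, so the count is no independent evidence.

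**Figure D1:**
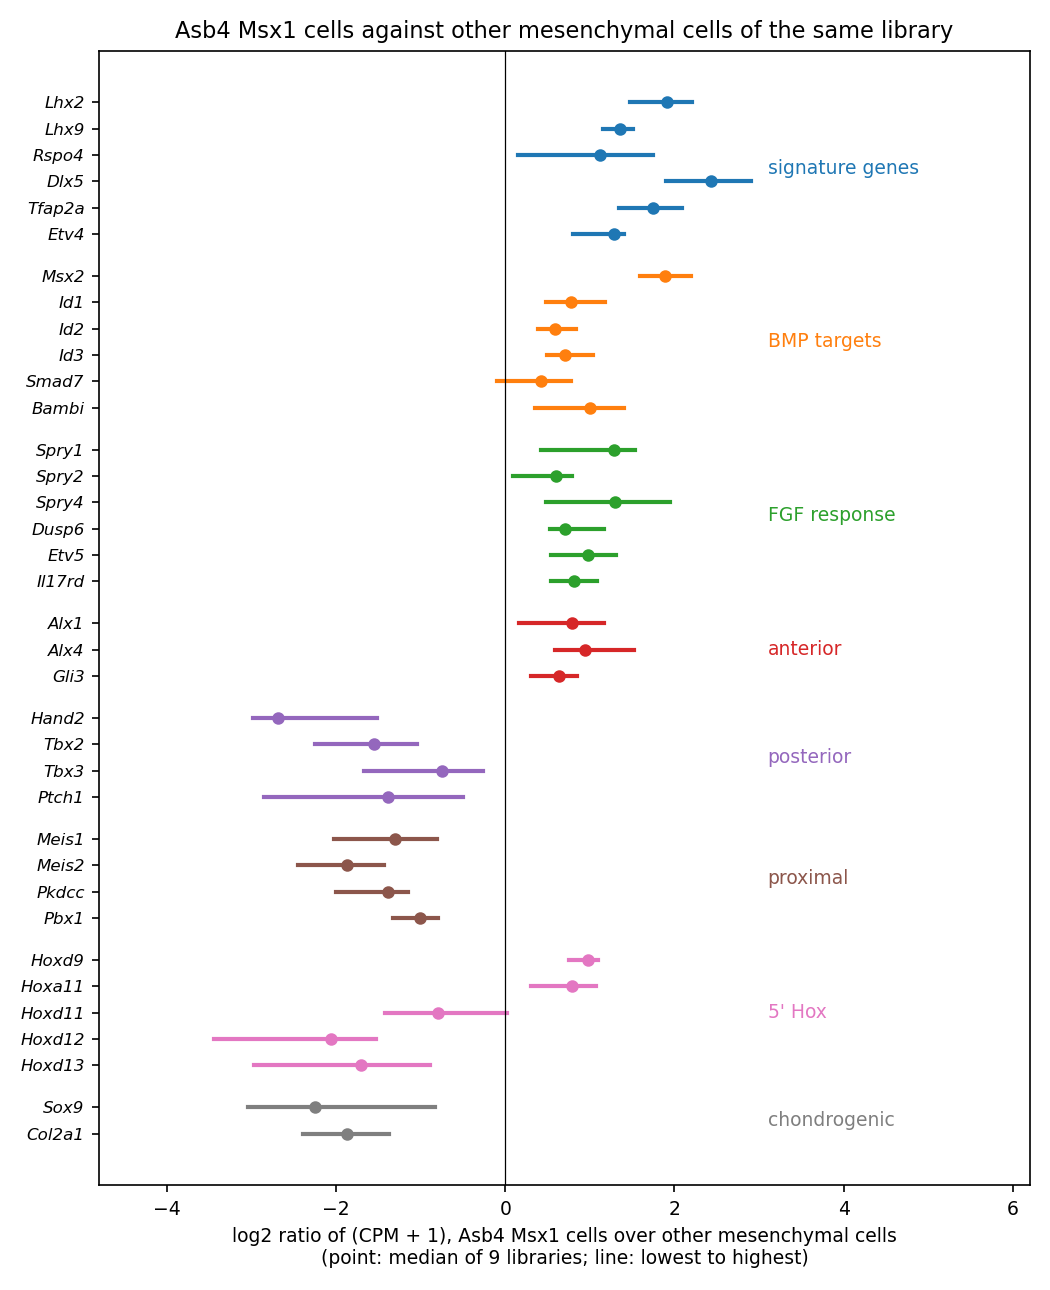
Log2 ratio of CPM with a pseudocount of 1 in the Asb4 Msx1 cells over the other mesenchymal cells of the same library, for genes grouped by role. Points are medians and lines run from the lowest to the highest of 9 libraries. Lhx2 at 1.91 and Msx2 at 1.89 sit far to the right, Hand2 at -2.69 and Sox9 at -2.25 far to the left.

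The 20 largest ratios that held in every library, among genes at 50 CPM or more, included Lhx2, Msx2 and Lhx9. They also took in Nfia (1.56), Zic2 (1.41) and Snai2 (1.21), which encode transcription factors. Prrx2, the paired-type relative of Prrx1, was at 598 CPM against 271 CPM in the other cells, a median log2 ratio of 1.07. Cdh11, a mesenchymal cadherin, stood at 304 against 153 CPM, and the WNT receptor gene Fzd10 at 50.4 against 23.5 CPM. Crabp1, which binds retinoic acid in the cytoplasm, was at 777 against 406 CPM.

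Most genes that respond to FGF were higher. Of 10 such genes at 10 CPM or more, 9 were higher in 9 of 9 libraries and 0 were lower, with a median ratio over the list of 0.76. Spry4 and Spry1, feedback inhibitors of FGF receptors, had ratios of 1.30 and 1.29. The ETS factor genes Etv4 and Etv5, which FGF switches on, stood at 1.28 and 0.98. Dusp6, a phosphatase for ERK, and Il17rd, an FGF receptor antagonist, stood at 0.70 and 0.81.

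Several direct targets of BMP signaling were higher than in the other mesenchyme as well. Of 9 listed targets at 10 CPM or more, 5 were higher in every library and 0 lower in every library. Besides Msx2, Id1 was at 523 against 309 CPM (0.77), Id3 at 436 against 263 CPM (0.70) and Id2 at 320 against 207 CPM (0.59). The Id genes encode inhibitors of bHLH factors. Bambi, a pseudoreceptor that dampens BMP signals, was at 88.1 against 45.4 CPM (1.01). The ligand genes Bmp4 and Bmp7 were at 0.59 and 0.69, both higher in 9 of 9 libraries. The receptor and SMAD genes were near the rest, with 1 of 9, Smad1 at 0.27, higher in every library. Among antagonists, Grem1 lay at -0.23, above the other mesenchyme in 3 of 9 libraries.

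Most listed anterior genes were higher and most posterior ones lower. Of 7 anterior genes at 10 CPM or more, 4 were higher in 9 of 9 libraries and 1 was lower. Alx4, a paired-type gene of the anterior bud, had a ratio of 0.95, and Gli3, the main repressor of hedgehog targets, one of 0.63. Hand2, which acts upstream of Shh, was at 25.2 CPM against 144 CPM in the other mesenchyme, a ratio of -2.69, with its neighbour transcript Hand2os1 at -3.19. The hedgehog receptor and target gene Ptch1 lay at -1.39, and the T-box genes Tbx2 and Tbx3 at -1.55 and -0.75. Of 8 posterior genes at 10 CPM or more, 6 were lower in every library and 0 higher. Cells with Shh were dropped by the rule, which works in this direction.

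Proximal genes were low, and so were 3 of 5 chondrogenic genes in 9 of 9 libraries. All 7 listed proximal genes were lower in 9 of 9 libraries, among them Meis2 (-1.88), Meis1 (-1.31), Irx3 (-1.63) and Pkdcc (-1.39), which mark the stem of the limb. Cells with Pax1 were dropped by the rule and kept in the other mesenchyme, which works toward lower proximal genes. Cells with at least 3 UMIs of Pax1 held 476 CPM of Meis2. Sox9, the master factor of cartilage, stood at 55.9 against 232 CPM (-2.25), and its target Col2a1 at -1.87. Scx, a tendon progenitor gene, lay at -1.92. Of 9 listed 5′ Hox genes 6 were higher and 2 lower in every library. The HoxD genes named here split by position in their cluster, and the HoxA genes named here were higher. Hoxd9 (0.98), Hoxa11 (0.79), Hoxd10 (0.63), Hoxa9 (0.41) and Hoxa10 (0.37) were higher in every library. Hoxd12 (-2.06) and Hoxd13 (-1.71) were lower in every library, and Hoxd11 (-0.79) in 8 of 9. Cells with Hoxa13 were dropped by the rule and kept in the other mesenchyme, which works toward lower Hoxd12 and Hoxd13.

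Asb4 lies on chromosome 6 beside other genes, and 6 of its 10 listed neighbours reached 10 CPM. Dync1i1, a dynein intermediate chain gene, had a ratio of 2.22 with 23.6 against 4.63 CPM. Slc25a13 had a ratio of 0.39 and was also higher in every library. The imprinted neighbours Peg10 and Sgce lay at -0.23 and -0.21, and Casd1 and Ppp1r9a at -0.45 and -0.46. The neighbourhood was thus not raised as a block.

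Among the other groups of mesenchymal cells, the same genes were spread differently. For comparison, 801 cells with at least 2 UMIs of Shh, 1035 with at least 2 UMIs each of Hoxa13 and Hoxd13, and 1688 with at least 3 UMIs of Pax1 were summed in each library. Lhx2 was higher in the Asb4 Msx1 cells than in each of these in 9 of 9 libraries, with mean levels of 362 CPM against 203, 165 and 98.3 CPM. Lhx9 was at 510 CPM against 222 and 250 CPM in the Shh and Hoxa13 cells, but the Pax1 cells reached 411 CPM. Msx2 was at 120 CPM here and at 79.5, 50.4 and 95.2 CPM in the Shh, Hoxa13 Hoxd13 and Pax1 cells. It was higher here in 8, 9 and 7 of 9 libraries. Over all 7846 genes, 6.42% were higher in the Asb4 Msx1 cells than in the Shh cells in 9 of 9 libraries and 6.65% lower, 6.81% and 9.5% against the Hoxa13 Hoxd13 cells, and 10.2% and 7.76% against the Pax1 cells. The smallest of these sums, the Shh cells of E1C8Δ/Δ replicate 1, rests on 8 cells. Of the 10 FGF response genes, 0 were higher than in the Shh cells in every library and 1 was lower, and 0 were higher and 2 lower than in the Hoxa13 Hoxd13 cells. Against the Pax1 cells 10 of 10 were higher, with Spry4 at 30.4 against 5.14 CPM. Of the 9 BMP targets, 1 was higher than in the Shh cells in every library and 0 were lower. The counts were 2 and 0 against the Hoxa13 Hoxd13 cells, and 2 and 0 against the Pax1 cells. Bambi was at 88.1 CPM here, at 113 and 106 CPM in the Shh and Hoxa13 Hoxd13 cells and at 38.6 CPM in the Pax1 cells.

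Anterior genes were higher than in the Shh and Hoxa13 Hoxd13 cells, and proximal genes lower than in the Pax1 cells. Of 7 anterior genes, 5 were higher than in the Shh cells in every library, 6 than in the Hoxa13 Hoxd13 cells and 2 than in the Pax1 cells, where 2 were lower. All 7 proximal genes were lower than in the Pax1 cells in every library, while 1 was higher than in the Shh cells and against the Hoxa13 Hoxd13 cells 0 were higher and 0 lower in every library. Alx4 was at 42.0 CPM here and at 63.8 CPM in the Pax1 cells, against 6.03 CPM with Shh and 5.01 CPM with Hoxa13. Meis2 was at 73.5 CPM, close to the 84.2 and 53.2 CPM of those groups and far from the 476 CPM of the Pax1 cells. Hand2 was lower than in any of the 3, at 25.2 CPM against 378, 234 and 55.8 CPM. Dlx5 was higher than in any of the 3, at 18.2 CPM against 3.24, 7.10 and 1.01 CPM. Bmp4, in contrast, reached 294 CPM in the Shh cells and 107 CPM here. Zic2 was at 51.1 CPM here, at 62.8 and 63.7 CPM in the Shh and Hoxa13 Hoxd13 cells and at 9.39 CPM in the Pax1 cells. Fzd10 was at 50.4 CPM here, and at 81.3, 64.9 and 14.9 CPM in the 3 groups. Nfia and Snai2 had lower means in all 3 groups than the 63.2 and 52.0 CPM here.

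**Figure D2:**
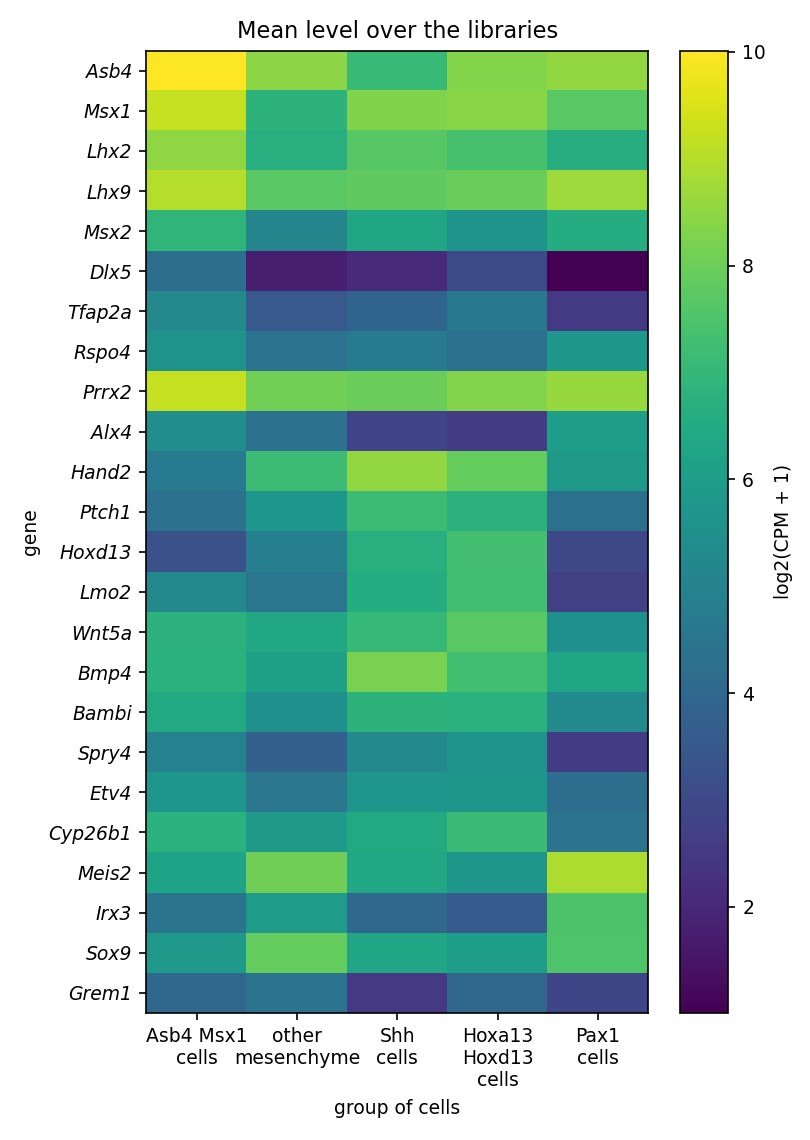
Mean level over the libraries, as log2 of CPM with a pseudocount of 1, of 24 genes in the Asb4 Msx1 cells, the other mesenchymal cells and cells with Shh, with Hoxa13 and Hoxd13, or with Pax1. Lhx2 and Dlx5 are brightest in the first column at 362 and 18.2 CPM, Hand2 in the Shh cells at 378 CPM, and Meis2 in the Pax1 cells at 476 CPM.

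The cells varied among themselves along the Msx1 level. The cells of each library were ranked by Msx1 and cut into 3 equal parts, and the highest was set beside the lowest, again without a test. Each part held 7 cells in Wt replicate 3 and 8 in E1C8Δ/Δ replicate 1, where the lowest part had a median of 57028 UMIs and the highest 29428.5, and both libraries enter the counts of 9. Among the 7846 genes, 1.58% were higher in the highest part in 9 of 9 libraries and 2.14% lower. Dlx5 rose from 9.87 to 29.1 CPM (log2 1.37), Msx2 from 82.6 to 167 CPM (1.06), Bambi from 64.0 to 116 CPM (0.89) and Bmp4 from 77.0 to 147 CPM (0.88), each in 9 of 9 libraries. Lhx2 (0.55), Id3 (0.53), Id1 (0.51) and Lhx9 (0.33) moved the same way in 9 of 9. Sox9 went from 90.1 to 23.2 CPM (-1.80), Meis2 from 105 to 34.7 CPM (-1.57) and Hand2 from 35.6 to 11.3 CPM (-1.40), each lower in 9 of 9.

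Alx4 and Hand2 were detected together in a small share of the cells. The share expected from independent detection was not computed, so avoidance between the genes was not tested. At 10000 UMIs per cell, 23.1% to 43.5% of the cells held Alx4 without Hand2, 7.75% to 15.5% Hand2 without Alx4, and 2.04% to 7.85% both. Neither was seen in 39.1% to 63.3%, so a missing UMI says little for a single cell. In blood cells thinned alike, Alx4 was seen in 0.234% to 1.78% and Hand2 in 2.60% to 7.69%.

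The first question of genotype was how many mesenchymal cells met the rule. The share was 6.87%, 4.46% and 3.89% in Wt, 6.08%, 8.52% and 9.27% in E1C8Δ/Δ, and 5.38%, 8.31% and 10.76% in E1C5Δ/Δ. In all, 4 of the 6 mutant libraries lay above all Wt libraries and the other two lay between Wt replicates 1 and 2. The mean was 8.05% ± 2.00 (SD, n = 6) in the mutants and 5.07% ± 1.58 (SD, n = 3) in Wt, a difference of 2.98 percentage points with a two-sided exact permutation p = 0.0714 over 84 splits. Adjusted over the 5 shares tested this was p = 0.159 in the exact permutation test. The test therefore did not pass. Against Wt alone, E1C8Δ/Δ (7.96% ± 1.67) and E1C5Δ/Δ (8.15% ± 2.69) each gave an exact permutation p = 0.2, where 3 against 3 libraries cannot go below 0.1.

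Before the cells with Pax1, Shh or Hoxa13 were dropped, the difference was similar. Cells past both thresholds made up 7.19% ± 2.04 (SD, n = 3) of the mesenchyme in Wt and 10.4% ± 2.11 (SD, n = 6) in the mutants. The exact permutation p was 0.0357 and 0.159 after adjustment, with 5 of 6 mutant libraries above all Wt libraries. Leaving out 1 library gave an unadjusted exact permutation p of 0.143 without Wt replicate 2 or 3, and of 0.0893 without E1C5Δ/Δ replicate 2 or 3 or any E1C8Δ/Δ replicate. That p, again unadjusted, was 0.0357 without Wt replicate 1 and 0.0179 without E1C5Δ/Δ replicate 1. With stricter thresholds of 8 for Asb4 and 5 for Msx1 the difference in the share of cells meeting the rule was 1.00 percentage point, with an exact permutation p = 0.202.

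What else the cells past both thresholds carried was tested next, and no difference between both mutants and Wt passed. Those with a UMI of Hoxa13, which specifies the autopod, were 23.9% ± 4.80 (SD, n = 3) in Wt and 16.2% ± 5.87 (SD, n = 6) in the mutants, and 5 of 6 mutant libraries lay below all Wt libraries. The exact permutation p was 0.0952, or 0.159 adjusted, so this did not pass. The exception was E1C8Δ/Δ replicate 1 with 26.8%, from 11 of 41 cells, and without that library the difference of -9.78 percentage points had an exact permutation p = 0.0179. That p is unadjusted, and the library was picked after the values were seen. Leaving out any other single library gave an unadjusted exact permutation p of 0.107 to 0.286. Shh was seen in 1.45% ± 1.54 (SD, n = 3) and 0.990% ± 0.942 (SD, n = 6), with an exact permutation p = 0.631. A share of cells with at least 1 UMI depends on depth. With each cell thinned to 10000 UMIs, the Hoxa13 share was 12.4% in Wt and 6.10% in the mutants. Its exact permutation p was then 0.0357, or 0.179 adjusted.

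Pax1 was the marker on which the mutants parted. Among cells past both thresholds it was seen in 7.42%, 6.70% and 2.94% in Wt, in 12.2%, 12.9% and 6.52% in E1C8Δ/Δ, and in 1.64%, 1.79% and 2.14% in E1C5Δ/Δ. All 3 E1C5Δ/Δ libraries lay below all Wt libraries, and 2 of 3 E1C8Δ/Δ libraries lay above them. The 2.94% came from Wt replicate 3, where 161 cells passed the Asb4 threshold and 21.1% of these passed both. The 12.2% came from E1C8Δ/Δ replicate 1, with 123 cells and 33.3%. Both shares thus rest on few cells. Over both mutants the share was 6.19% ± 5.24 (SD, n = 6) against 5.69% ± 2.40 (SD, n = 3) in Wt, with an exact permutation p = 0.952. E1C8Δ/Δ exceeded E1C5Δ/Δ by 8.68 percentage points with no overlap, at an exact permutation p = 0.1, the smallest that 3 against 3 libraries allow. This comparison of the mutants was not planned beforehand. With each cell thinned to 10000 UMIs, the Pax1 share was 6.41% in E1C8Δ/Δ, 4.43% in Wt and 1.64% in E1C5Δ/Δ. Then 1 of 3 E1C8Δ/Δ libraries lay above all Wt libraries, and 3 of 3 E1C5Δ/Δ libraries lay below them.

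**Figure D3:**
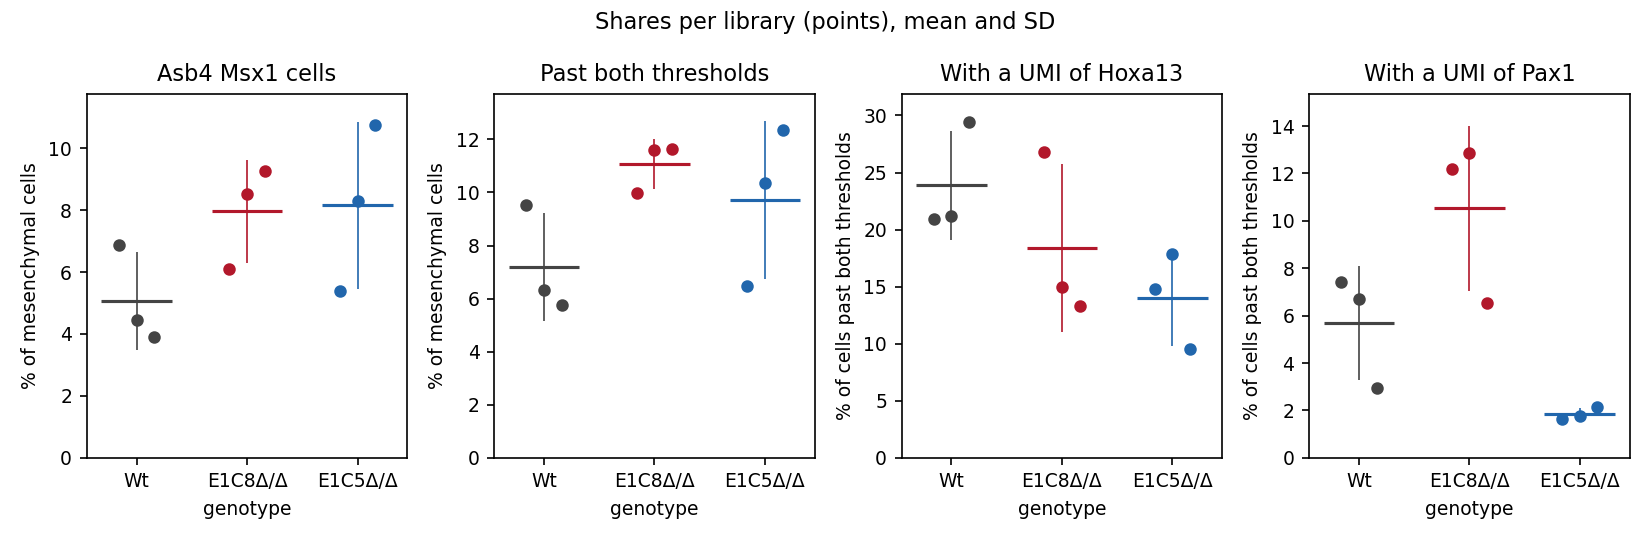
Share of mesenchymal cells that met the rule or passed both thresholds, and share of the latter with a UMI of Hoxa13 or Pax1, in percent. Points are libraries, horizontal lines means and vertical lines SD, with n = 3 per genotype. The Pax1 share is 1.64% to 2.14% in E1C5Δ/Δ and 6.52% to 12.9% in E1C8Δ/Δ.

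The second question was which genes changed within the Asb4 Msx1 cells. UMIs were summed over these cells per library, with 849548 to 33916618 UMIs in the 12073 genes tested, and edgeR's quasi-likelihood test with Benjamini-Hochberg adjustment was used, with the library as the replicate. Levels in this section are CPM after TMM scaling. Grem1, whose enhancers the mutants lack, was at 19.8, 17.9 and 9.25 CPM in Wt, at 6.86, 13.4 and 17.6 CPM in E1C8Δ/Δ and at 24.2, 15.3 and 21.5 CPM in E1C5Δ/Δ. These ranges overlap, and the log2 change was -0.00 ± 0.20 (SE) for both mutants together.

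With both mutants set against Wt, 0 genes passed an adjusted p of 0.05, that is 0% in either direction, although 1236 genes had an unadjusted p under 0.05. DESeq2 on the same genes called 31, and without a filter on low counts edgeR called 237. Every mutant library lay above every Wt library for 176 genes (1.46%) and below for 203 (1.68%). Of the marker genes, Lhx2 belonged to the second set. It was at 440, 385 and 407 CPM in Wt, 365, 364 and 359 CPM in E1C8Δ/Δ, and 294, 371 and 377 CPM in E1C5Δ/Δ. Its log2 change of -0.21 ± 0.10 (SE) had an adjusted p = 0.503. Lhx9 was at 539 ± 43.0 CPM in Wt, 541 ± 28.8 in E1C8Δ/Δ and 501 ± 44.0 in E1C5Δ/Δ (SD, n = 3). Lmo2, a LIM-only partner of such factors, was above all Wt libraries in all 6 mutant libraries, with a log2 change of 0.71 ± 0.18 (SE) and an adjusted p = 0.203.

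E1C8Δ/Δ alone against Wt gave 277 genes, 107 higher (0.886%) and 170 lower (1.41%), and E1C5Δ/Δ alone gave 7, 2 higher (0.0166%) and 5 lower (0.0414%). A single gene, Gm3636, was in both sets. The same contrasts in the other mesenchymal cells tested 16150 genes. They called 236 for both mutants against Wt, 1278 for E1C8Δ/Δ and 206 for E1C5Δ/Δ. Those counts rest on more cells and more tested genes. Among the lists, 4 of 7 proximal genes were higher in E1C8Δ/Δ and 0 lower. Meis2 rose from 58.8 to 98.1 CPM (log2 0.74 ± 0.16 SE, adjusted p = 0.0297) and Pkdcc from 81.6 to 139 CPM (0.81 ± 0.18). Irx3 (1.15 ± 0.28) and Irx5 (1.29 ± 0.28), which were not set out to be named but complete the 4, rose also. Meis2 and Pkdcc each lost the call when any one E1C8Δ/Δ library, Wt replicate 1 or Wt replicate 2 was left out, with adjusted p up to 0.233 and 0.293 over the alternatives. Both calls were also lost with the rule read at 10000 UMIs, with Xist as a term and with the replicate number as a block. In all, Meis2 lost its call in 9 of 19 alternatives and Pkdcc in 10.

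Msx2 was the 1 of 11 BMP target genes and the 1 of 9 signature genes called higher in E1C8Δ/Δ. It was at 94.3, 111 and 127 CPM in Wt and at 185, 172 and 149 CPM in E1C8Δ/Δ, with no overlap, a log2 change of 0.61 ± 0.14 (SE) and an adjusted p = 0.0322. In all mesenchymal cells, the Asb4 Msx1 cells included, plain CPM of Msx2 were also higher in E1C8Δ/Δ. They were 25.7, 30.7 and 36.8 in Wt and 64.8, 61.4 and 47.5 in E1C8Δ/Δ. The call was lost in 7 of 19 alternatives, among them each of the 3 that left out an E1C8Δ/Δ library and those without Wt replicates 1 or 2. The other losses of this call came with Xist as a term and with the replicate number as a block. Ier2, an immediate early gene that reacts to growth factors and to dissociation, rose from 106 to 228 CPM (1.08 ± 0.15, adjusted p = 0.0041) and kept its call in 19 of 19 alternatives. The proliferation gene Mki67 fell from 248 to 161 CPM (-0.61 ± 0.13, adjusted p = 0.0246). It was the 1 of 18 G2/M genes called, and that call was lost in 8 of 19 alternatives, Xist as a term among them. None of the 12 FGF response genes and none of the 9 5′ Hox genes was called against Wt in either mutant by edgeR.

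The E1C8Δ/Δ libraries, which gave the 277 genes, also differed in other properties. Genes picked out of the 277 after the values were seen included Snhg5 (36.4 to 125 CPM), Snhg15 and Snhg16, hosts of small nucleolar RNAs. They also included histone and ribosomal transcripts such as Hist1h2ap (-3.15 ± 0.69) and Rpl35 (-1.59 ± 0.24). Hbb-bt, an adult-type globin gene of blood, stood at 223 ± 316 CPM against 5.13 ± 2.53 CPM (SD, n = 3), a spread larger than its mean. The E1C8Δ/Δ cells had the lowest depth, as given above, and the sum of 9 blood genes was 1595 to 7636 CPM in them against 330 to 6264 CPM in Wt and 793 to 1336 CPM in E1C5Δ/Δ. The sum of the ectoderm list was 11.4 to 19.3 CPM against 5.82 to 10.5 in Wt and 4.20 to 6.24 in E1C5Δ/Δ. The muscle list was at 8.35 to 12.8 CPM against 3.68 to 6.78 and 1.47 to 2.93, and the stress list at 2301 to 2530 CPM against 2074 to 2178 and 2096 to 2152. Of the listed genes tested, 1 of 8 blood, 2 of 10 stress, 0 of 3 ectoderm and 0 of 3 muscle genes were called in E1C8Δ/Δ. The part of depth, blood, ectoderm, muscle and stress in these calls was not tested. With Xist as a term, 24 genes were called in place of 277. Without Wt replicate 3 there were 691, and without E1C8Δ/Δ replicate 2 there were 23.

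A pair of developmental genes was lower in E1C5Δ/Δ, described with the other calls after their values were seen. Dlx5 was at 8.81, 9.98 and 6.68 CPM against 15.3, 19.2 and 27.8 CPM in Wt, with no overlap (log2 -1.22 ± 0.20 SE, adjusted p = 0.0439). Tbx3, a T-box gene of the anterior and posterior margins, was at 24.4, 26.2 and 20.5 CPM against 48.1, 37.1 and 64.8 CPM (-1.02 ± 0.17, adjusted p = 0.0473). The other calls were H2-D1, Thg1l and Zfp804a (lower) and Gm3636 and B230312C02Rik (higher). The call of Dlx5 was lost in 12 of 19 alternatives and that of Tbx3 in 13, with adjusted p up to 0.472 and 0.357. Leaving out E1C5Δ/Δ replicate 1 or 3, or Wt replicate 3, ended both, as did the Xist term.

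Since the mutants parted in Msx2 and Dlx5, they were also set against each other, a comparison chosen after the data were seen. Of 12073 genes 802 differed, 376 higher in E1C8Δ/Δ (3.11%) and 426 lower (3.53%). In the other mesenchymal cells 1494 of 16150 genes differed. All 3 E1C8Δ/Δ libraries had more Dlx5 (28.6, 26.1 and 26.8 CPM) than all E1C5Δ/Δ libraries, a log2 difference of 1.73 ± 0.20 (SE) with an adjusted p = 0.00055. Msx2 at 185, 172 and 149 CPM stood above 88.4, 101 and 82.3 CPM, a difference of 0.89 ± 0.14 (adjusted p = 0.0027). In all mesenchymal cells, these included, Msx2 was at 47.5 to 64.8 plain CPM in E1C8Δ/Δ and 26.5 to 36.1 in E1C5Δ/Δ. Bambi was at 58.9 to 74.4 and 38.0 to 44.1 plain CPM there. Whether the mutants differed more in the Asb4 Msx1 cells than in the other mesenchyme was not tested. Of the 11 BMP target genes, 4 were higher in E1C8Δ/Δ and 0 lower, namely Msx2, Id3 (0.52 ± 0.14), Id4 (0.86 ± 0.19) and Bambi (0.56 ± 0.13). The call of Id3 was lost in 9 of 19 alternatives, among them the Xist term, each E1C8Δ/Δ library left out and E1C5Δ/Δ replicate 2 or 3 left out. Those of Id4 and Bambi were lost in 5 each, without E1C8Δ/Δ replicate 2 or 3 or E1C5Δ/Δ replicate 3 among them. The list median was 0.49 where that of all genes was 0.00. Id3 was at 552 CPM in E1C8Δ/Δ, 417 in Wt and 385 in E1C5Δ/Δ, and Bambi at 110, 87.7 and 76.1 CPM, so in these genes Wt lay between the mutants.

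Other lists held genes that differed between the mutants as well. Of 7 FGF ligand and receptor genes 3 were higher in E1C8Δ/Δ and 1 lower, and of 11 posterior genes 4 were higher. Of 10 anterior genes 3 were higher and 0 lower, and of 9 chondrogenic genes 3 were higher and 0 lower. Of 12 FGF response genes 1, Spry1 at 0.55 ± 0.16, was higher in E1C8Δ/Δ, and of 9 5′ Hox genes 0 differed. The secreted WNT inhibitor gene Dkk1, itself raised by BMP, was at 39.3 CPM in E1C8Δ/Δ, 26.3 in Wt and 13.1 in E1C5Δ/Δ (1.47 ± 0.20, adjusted p = 0.0018). Tcf7, a nuclear effector of WNT, was lower in E1C8Δ/Δ by a log2 of 0.89 in the same test, from 44.4 to 23.2 CPM. Of 6 T-box genes 4 were higher in E1C8Δ/Δ, with Tbx3 at 0.79 ± 0.17, and Hand2 was at 35.1 against 19.9 CPM (0.79 ± 0.18). Of 10 stress genes 5 were higher, among them Jun at 1.18 ± 0.17, and those libraries also had the higher sum of the stress list given above. Dlx5, Msx2, Dkk1, Snai2, Jun, Ier2 and Mki67 kept the call in 19 of 19 alternatives. The 2 smallest libraries were left out in one of these, with Wt replicate 3 and E1C8Δ/Δ replicate 1 removed.

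**Figure D4:**
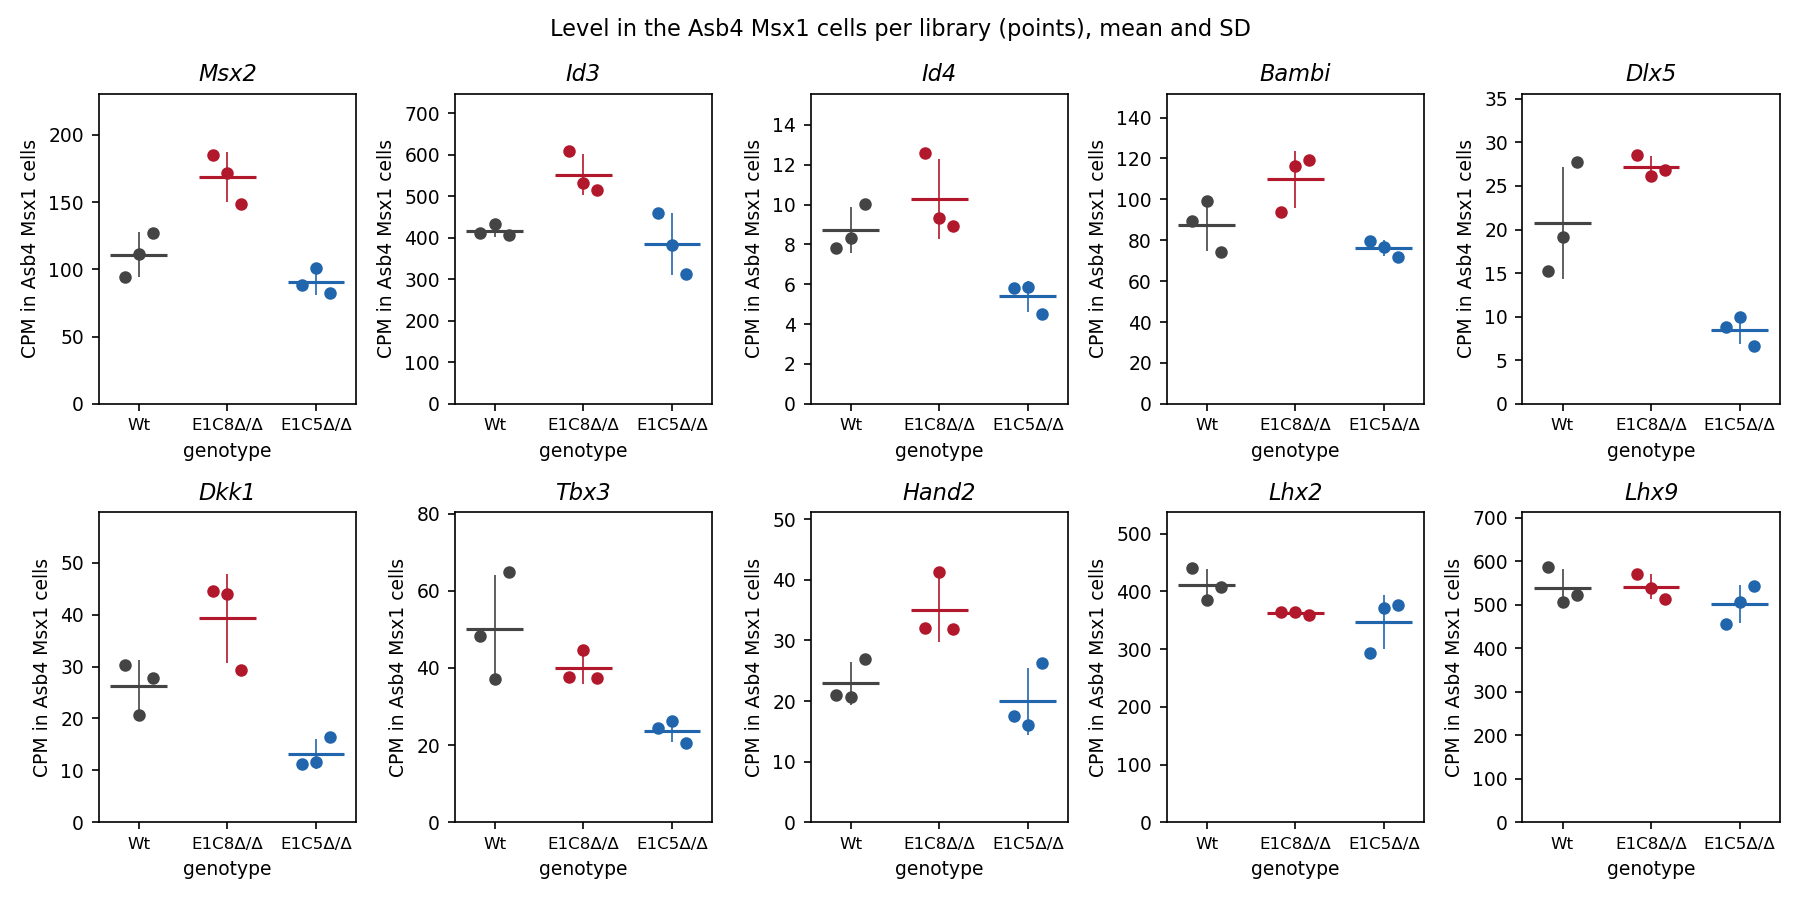
Level of 10 genes in the Asb4 Msx1 cells by genotype, in CPM after TMM scaling. Points are libraries, horizontal lines means and vertical lines SD, with n = 3 per genotype. Msx2, Dlx5 and Dkk1 are higher in every E1C8Δ/Δ library than in any E1C5Δ/Δ library, while Lhx9 overlaps in all 3 genotypes.

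The third question was whether the mutants changed a gene in these cells as they did in the rest of the mesenchyme. The difference between the 2 changes was tested for 13628 genes with the library as a block, and 11 passed, 8 positive (0.0587%) and 3 negative (0.022%). Here levels are plain CPM. Grem1 was among the positive ones. In the other mesenchyme it was at 41.2, 27.5 and 26.6 CPM in Wt, at 9.59, 11.2 and 12.7 CPM in E1C8Δ/Δ and at 17.0, 15.8 and 25.3 CPM in E1C5Δ/Δ, so all 6 mutant libraries were below all 3 Wt libraries. That change was -1.09 ± 0.16 (SE, log2, adjusted p = 0.0115), -1.51 in E1C8Δ/Δ and -0.67 in E1C5Δ/Δ. In the Asb4 Msx1 cells the libraries overlapped, at 9.03 to 19.9 CPM in Wt and 6.82 to 22.1 CPM in the mutants. The difference of the changes was 1.02 ± 0.15 with an adjusted p = 0.0035. It was kept in 14 of 15 alternatives and lost without Wt replicate 1, where the difference was 0.89 and the adjusted p 0.392.

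Lhx2 moved the other way. In the other mesenchyme it had a log2 change of 0.24 ± 0.12 (adjusted p = 0.345), against -0.21 ± 0.10 in the Asb4 Msx1 cells. The difference was -0.44 ± 0.08 with an adjusted p = 0.0253 and was lost in 5 of 15 alternatives. These were the stricter thresholds, the 2 smallest libraries left out, and each Wt replicate left out. The rule sets a minimum of Asb4 and Msx1 in the cells of every genotype. Among the cells Lhx2 rose with Msx1 (0.55, in 9 of 9 libraries). The part of this selection in the difference was not tested. Hoxd13 fell outside the cells (-0.79 ± 0.12, adjusted p = 0.0137) and had a change of 0.46 ± 0.31 in them, a difference of 1.29 ± 0.23. It was lost in 6 of 15 alternatives, DESeq2 and those without Wt replicates 1 or 3 or E1C5Δ/Δ replicate 3 among them. Hoxd12 gave a difference of 1.22 ± 0.23, lost in 9 of 15, each Wt replicate left out among them. The rule drops cells with Hoxa13 from the one group and keeps them in the other. With those cells kept, the difference for Hoxd13 was 0.80 with an adjusted p = 0.138. For Hoxd12 it was 0.96 with an adjusted p = 0.0389 in the same test, so that call was kept there. Hoxd12 was low in the Asb4 Msx1 cells, at 1.65 to 5.68 CPM. It rested on 4 UMIs in Wt replicate 3 and 5 in E1C8Δ/Δ replicate 1.

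Pmaip1, a p53 target gene that promotes apoptosis, had the smallest p. It was at 26.7, 24.6 and 28.2 CPM in the other mesenchyme of Wt and at 8.42 to 16.0 CPM in the mutants, a log2 change of -1.21 ± 0.08. In the Asb4 Msx1 cells it was at 47.8 to 55.0 CPM in Wt and 30.1 to 45.5 CPM in the mutants, a change of -0.44 ± 0.12. The difference was 0.79 ± 0.10 (adjusted p = 0.0014) and was lost in 1 of 15 alternatives, without Wt replicate 1 (adjusted p = 0.0623). Map1b, which encodes a microtubule binding protein, fell in the other mesenchyme by 0.68 on the log2 scale and had a change of -0.22 in the cells, a difference lost in 8 of 15 alternatives. Prrx2 had a difference of -0.31 ± 0.05 from changes of -0.23 and 0.09, lost in 5 of 15. Both were lost with any Wt replicate left out. Prrx2, like Lhx2, rose with Msx1 among the cells (0.34, in 9 of 9 libraries). The part of the rule in its difference was not tested.

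**Figure D5:**
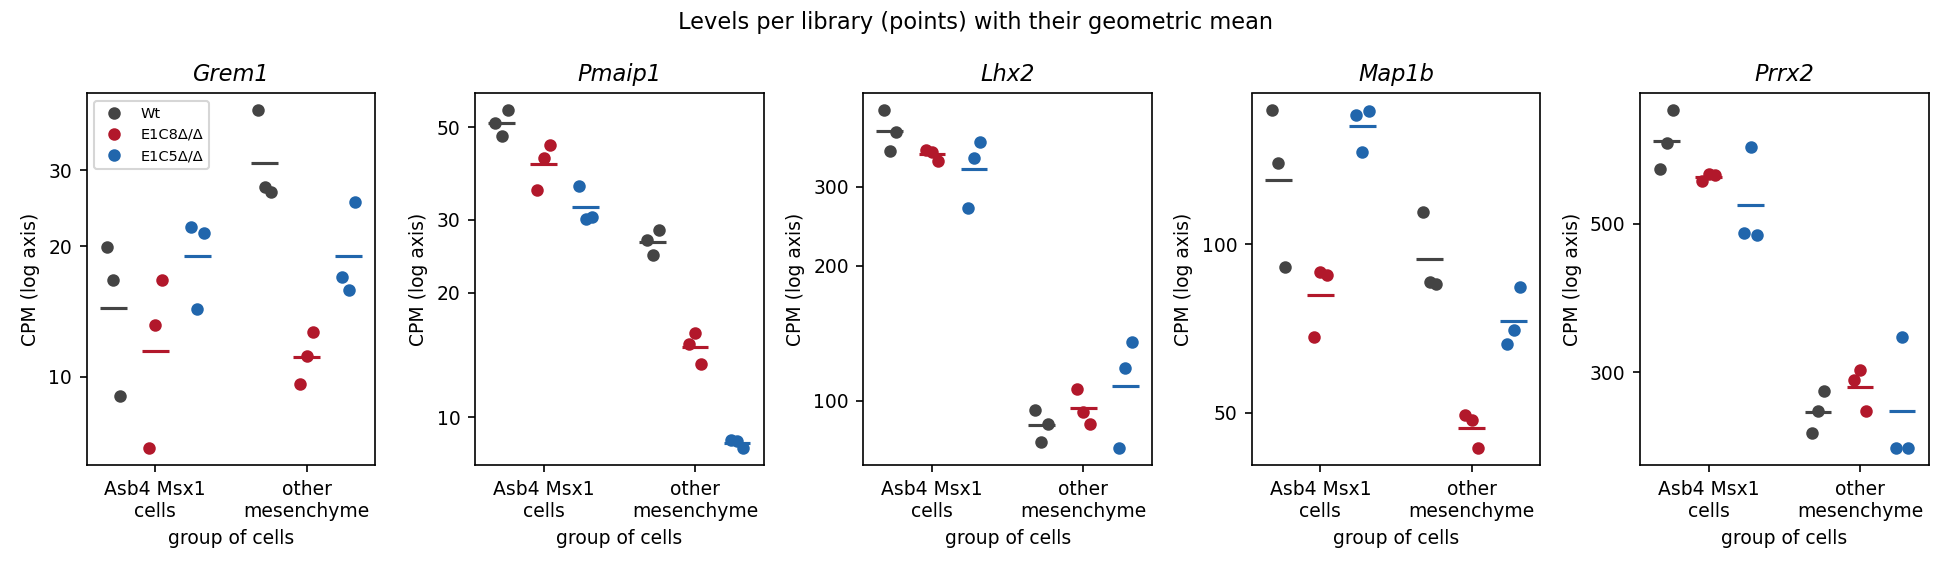
Level of 5 genes per library in the Asb4 Msx1 cells and in the other mesenchymal cells, in CPM on a log axis. Points are libraries and lines geometric means. Grem1 in the other mesenchyme is 26.6 to 41.2 CPM in Wt and 9.59 to 25.3 CPM in the mutants, while in the Asb4 Msx1 cells the genotypes overlap.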

How the data were processed

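The authors made the deposited files, raw UMI counts per gene and barcode, with Cell Ranger 6.0.1 on mm10 from droplet libraries, as the paper's methods and the submitters' processing notes state. Each of the 9 libraries is a biological replicate grouped by its label. The 32289 features and all barcodes were read, and cells were chosen by the rule in the report. The rule does not remove doublets, and their removal was an alternative. The members and gene lists were chosen with earlier results of these data known.

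For each library the UMIs of the chosen cells were added up, and these sums were tested with edgeR 4.0.16 (TMM scaling, quasi-likelihood F test, Benjamini-Hochberg, adjusted p at most 0.05) in R 4.3.3, with all 9 libraries in 1 fit. The 1809 features on X or Y, the 10 rule genes and 4 transgene features were left out, and low counts were filtered. Shares were compared by two-sided exact permutation over libraries in Python 3.11.15, with 84 splits of 6 against 3 libraries and a smallest p of 0.0119. DESeq2 1.42.0 was an alternative. On simulated counts for both mutants against Wt over 12073 genes, 82% of 200 genes with a log2 change of 1 were recovered with 10 false calls. Replicate numbers were not used to pair libraries in the main fit, and 0 of 9 same-number pairs correlated above 0.1.

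Genes were named as follows: the rule genes and markers, all genes of the signature, distal progenitor, BMP target and FGF response lists, up to 4 of each other list (called ones first, then the most expressed), up to 10 per direction among non-overlapping calls of both mutants, the 20 largest ratios over other mesenchyme at 50 CPM or more, and the 5 smallest interaction p. Genes outside this rule were chosen after their values were seen. Counting intervals are not given for sums, and the spread between libraries is used instead. Some genes counted in the totals are not reported here.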

Additional observations from a re-analysis of the deposited data

Results flagged for a closer look

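The 2 mutants differed from each other in 33 of 151 named genes of the Asb4 Msx1 cells by edgeR's quasi-likelihood test after adjustment over all genes, and 27 of these were higher in E1C8Δ/Δ. The values given are log2 differences, E1C8Δ/Δ minus E1C5Δ/Δ. Among transcription factor genes they were 1.73 for Dlx5, 0.89 for Msx2, 0.82 for Snai2, 0.79 for Tbx3, 0.96 for Tbx18, 0.79 for Hand2, 0.60 for Alx4, 1.17 for Sox9, 1.03 for Hes1 and -0.74 for Sall3. Among genes of BMP, WNT and FGF signaling they were 0.52 for Id3, 0.86 for Id4, 0.56 for Bambi, 1.47 for Dkk1, 0.55 for Spry1, 1.24 for Fgfr2, 0.60 for Fgfrl1, 3.17 for Fgf8 and -0.66 for Fgf10. For matrix and cartilage genes the values were 0.53 for Col9a1, 1.32 for Col2a1, 0.77 for Col1a2 and 0.68 for Col3a1. The remaining values were 0.87 for Pkdcc, 0.59 for Epha7, -0.73 for Epha4, -0.70 for Cyp26b1, -0.99 for Map1b, -0.65 for Mki67, 0.94 for Ier2 and 1.18 for Jun. Several of these calls were lost in many of 19 alternatives, namely Fgfrl1 in 12, Col9a1 in 11, Fgf10 in 10, Sox9, Spry1, Id3 and Epha7 in 9 each, Sall3 in 8 and Alx4 in 7. Fgf8 belongs to the ectoderm list, and the sum of that list was higher in E1C8Δ/Δ, whose part in these values was not tested.

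For 11 genes the change in both mutants differed between the Asb4 Msx1 cells and the other mesenchyme, by the same test with an interaction term. The log2 differences were 0.79 for Pmaip1, 1.02 for Grem1, -4.28 for Gal, -0.31 for Prrx2, 0.35 for Vcan, 1.29 for Hoxd13, -0.44 for Lhx2, 0.81 for Zfp9, 1.22 for Hoxd12, 0.57 for Hsd11b2 and 0.47 for Map1b. Of 15 alternatives the call of Hoxd12 was lost in 9, of Map1b in 8 and of Hoxd13 in 6. Gal was at 2.56 CPM in the Asb4 Msx1 cells of Wt replicate 2 and at 0 to 0.178 CPM in those of the other libraries, and without Wt replicate 2 its adjusted p was 1.

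The share of cells past both thresholds that held a UMI of Pax1 differed by 8.68 percentage points between the mutants. With each cell thinned to 10000 UMIs the share was 6.41% in E1C8Δ/Δ and 1.64% in E1C5Δ/Δ. The exact permutation p of 0.1 for the difference of 8.68 points is the smallest for 3 against 3 libraries.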

How the results depend on the processing

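Of the single-gene values recomputed, most of them for genes with no call, 10023 stayed, 1081 moved, 209 gained and 254 lost a call, and 1 reversed. The reversal was Pf4 in E1C8Δ/Δ at -3.38 with the rule read at 10000 UMIs. A sign change of a gene with no call in either setting counted as moved, not as reversed. Against Wt, calls of genes set out to be named were lost in 0 (Ier2) to 12 (Map1b) of 19 alternatives in E1C8Δ/Δ. In E1C5Δ/Δ, Dlx5 lost its call in 12 and Tbx3 in 13. The calls of both mutants against Wt rose from 0 to 31 with DESeq2, 237 with no filter on low counts, 2 with stricter thresholds and 11 with Pax1, Shh or Hoxa13 cells kept. In the same order E1C8Δ/Δ against Wt went from 277 to 422, 802, 130 and 698, with 499 under the rule read at 10000 UMIs and 24 with Xist as a term, and E1C5Δ/Δ against Wt from 7 to 31, 244, 3 and 14, with 0 under the Xist term and 0 without the 2 smallest libraries. E1C8Δ/Δ against E1C5Δ/Δ went from 802 to 1389 with no filter and 317 with stricter thresholds. The interaction went from 11 to 7 with DESeq2, 159 with no filter, 31 with those cells kept and 5 with stricter thresholds. The cause was not tested.

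With the replicate block, calls were 2 for both mutants, 75 for E1C8Δ/Δ, 0 for E1C5Δ/Δ and 403 between the mutants. Same-number pairs correlated at -0.12 to 0.07 and other pairs of libraries across genotypes at -0.18 to 0.29. These few correlations cannot exclude a batch shared by libraries of the same number.

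The Shh share changed sign to 0.455 percentage points when thinned, and the Pax1 share to -0.286 with doublets removed, -0.406 when thinned and -2.07 without the 2 smallest libraries. Leaving out 1 library gave 2.39 to 3.88 points for the share meeting the rule, 2.48 to 4.36 for both thresholds, -9.78 to -4.89 for Hoxa13, -0.867 to 1.42 for Pax1 and -1.19 to 0.351 for Shh. Calls then ran from 0 to 21 for both mutants, 23 to 691 for E1C8Δ/Δ, 2 to 21 for E1C5Δ/Δ, 138 to 1158 between the mutants and 1 to 27 for the interaction. The 23 and 25 cells of the smallest libraries limit both comparisons with Wt.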
